A study of Mus musculus with 23 samples.

Results

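Gene expression in the nucleus accumbens was compared between methamphetamine and saline injection in mice of the HMACT line, which was selected for a strong acute response to this stimulant. The 6 arrays titled as methamphetamine and the 6 titled as saline of this line were compared, 12 of the 23 arrays of the series. The comparison is described across the genes above the floor, that is, with a value over 2.3 on more than 6 of the 12 arrays. These were 5304 of 8251 genes (64.3%), and 5157 of them lay above the floor on all 12 arrays.

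The series crossed 2 selected lines, HMACT and its low-response counterpart LMACT, with an injection of saline or methamphetamine. Both lines came from a stock of C57BL/6J and DBA/2J mice. The saline group received 0 mg/kg and the other group 2 mg/kg methamphetamine, and brains were taken 1 hour after this challenge injection. Each array measured 1 pool of accumbens tissue described as 4-way. The labels do not say how animals were shared among pools or that pools were independent, and p-values therefore cover only the spread seen between pools. Each direction of selection is represented by 1 line.

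Methamphetamine enters dopamine terminals through the dopamine transporter and reverses transport, so that dopamine floods the accumbens. Dopamine at D1 receptors raises cyclic AMP in medium spiny neurons, the main cell type of this region, and cyclic AMP and MAP kinase signals then switch on immediate early genes. These genes are transcribed within minutes without new protein synthesis. Some encode transcription factors (Fos, Fosb, Egr2, Atf3, Klf4), others encode proteins that act directly on RNA, kinases or signalling (Btg2, Dusp1, Sgk1, Gem). Stress hormones are released by stimulants too, and heat shock genes encode chaperones that respond to unfolded protein.

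The values were log2 expression values, 1 per probe set, between 2.23 and 16.4, with 44.2% of those on the 12 arrays under the floor of 2.3. Markers of medium spiny neurons were readable: Tac1, Penk, Drd2 and Pdyn lay above the floor, whereas Rgs9, Chrm4, Chrm1, Cnr1 and Oprm1 of the same list did not. Pools of replicates 1 to 3 had mean ages of 141.5 to 154 days and came from 1 chip lot. Those of replicates 4 to 6 had mean ages of 77.25 to 88 days and came from 3 chip lots, each with both treatments. Replicate set and age cannot be told apart; lot can only in part, since replicate 6 of both groups was in the lot of replicates 1 to 3. The first principal component of the gene-centred values of all 23 arrays held 63.2% of their variance. On it, 3 of the 12 arrays stood apart, saline replicates 3 and 5 and methamphetamine replicate 3, with scores of 66.5, 41.7 and 62.4. The other 9 lay between -21.3 and 23.9. The score averaged 16.9 ± 32.6 after saline and 5.99 ± 32.4 after methamphetamine (SD, n = 6 each; exact permutation test, two-sided p = 0.556). The signal at the 3' end of the Gapdh and actin controls minus that at the 5' end was 1.07 on saline replicate 3. It lay between 2.00 and 2.80 on the other HMACT arrays. Whether this bears on the gene values of saline replicate 3 was not tested.

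Across the 5304 genes, the data show 1 gene that rose, Btg2, beside a small set of transcription factor genes with higher values and a small set of chaperone genes and Hes5 with lower values. Differences are methamphetamine minus saline on the log2 scale, with standard errors (SE) from limma. The adjusted p is the Benjamini-Hochberg value over all 8251 genes, with 0.05 as the threshold. Past it were 1 higher gene (0.0121% of those tested) and 0 lower genes (0%). An unadjusted p under 0.05 was found for 128 genes, 41 higher and 87 lower. Among the genes above the floor these were 35 higher (0.66%) and 70 lower (1.32%). Even together these shares are smaller than the 0.05 that such a threshold passes on average where no gene differs. An unadjusted p under 0.05 is used below to name list members, not to call them changed. The median difference was -0.02, and most differences lay between -0.38 and 0.39, their lower and upper ventiles. Only 12 genes differed by over 1 log2 unit, 9 higher and 3 lower, and the median SE was 0.21. Without model or threshold, the 6 methamphetamine and 6 saline arrays did not overlap for 9 genes (0.17%). Higher were Btg2, Egr2, Klf4, Atf3 and Gtf3c2 (0.0943% of 5304 genes), and lower were Hspa1b, Hspa1a, St13 and Plekha7 (0.0754%). Some genes separate in this way by chance, and the count was not compared with the number so expected. A lack of overlap is therefore given here and below as description, not as evidence of an effect.

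**Figure D1:**
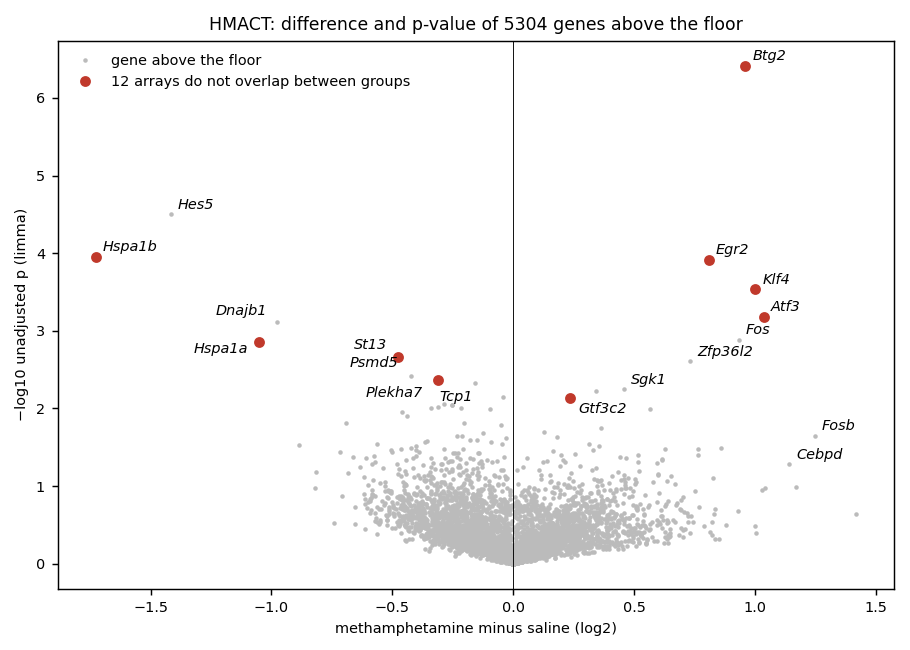
Each point is 1 of the 5304 genes above the floor, with the log2 difference methamphetamine minus saline in HMACT on the x axis and the negative log10 of the unadjusted limma p on the y axis; large red points mark the 9 genes whose 12 arrays did not overlap. Btg2 stands highest at a difference of 0.96, Egr2, Klf4 and Atf3 lie to its lower right and left, and Hes5 and Hspa1b stand highest among the lower genes.

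Btg2 encodes an antiproliferative cofactor of messenger RNA deadenylation and is an immediate early gene. It was the gene with the smallest p. Its log2 value on the saline arrays was 7.99 at the lowest, 8.79 at the median and 9.04 at the highest, and on the methamphetamine arrays 9.47, 9.64 and 9.71. The groups did not overlap, and the methamphetamine arrays lay closer together than the saline arrays. Means were 8.66 ± 0.40 and 9.62 ± 0.08 (SD, n = 6 each), so Btg2 rose by 0.96 (SE 0.128, adjusted p = 0.00317, limma), which is 1.95-fold. The difference was 0.99 (SE 0.191) in replicates 1 to 3 and 0.93 (SE 0.191) in replicates 4 to 6, and it lay between 0.82 and 1.08 within each of the 3 chip lots. The lots of replicates 4 and 5 held only 1 HMACT array of each group, so their values are single differences without a spread. Saline replicate 3, an array that stood apart, had the lowest Btg2, and without it the difference in replicates 1 to 3 was 0.66. Without the 4 arrays of the series that stood apart the difference was 0.83 (adjusted p = 0.00673). The call rested on the spread of all 23 arrays. With a fit of the 12 HMACT arrays alone the difference was the same and the adjusted p was 1 (unadjusted p = 1.29e-04).

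The promoter of Btg2 is shown because it holds, once, the full palindromic element TGACGTCA of cyclic AMP responsive promoters. It is given in RefSeq's GRCm38.p6 table as chr1:134079106-134079405 on the minus strand, from 250 bases before to 50 after the gene's start, and the capitals mark the element, which begins 166 bases before the start.

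Btg2: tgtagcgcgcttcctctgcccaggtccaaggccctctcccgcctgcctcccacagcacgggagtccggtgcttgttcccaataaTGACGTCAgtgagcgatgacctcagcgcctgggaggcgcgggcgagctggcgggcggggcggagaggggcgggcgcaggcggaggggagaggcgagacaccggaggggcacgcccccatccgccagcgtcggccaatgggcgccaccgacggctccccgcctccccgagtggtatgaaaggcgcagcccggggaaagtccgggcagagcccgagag

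On either strand TGACGTCA was present in 1.79% of 32851 RefSeq promoters of the same length, and its first letters alone, TGACG, in 20.8%. The motifs were chosen with these results known, and a match describes the letters only.

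Of the immediate early transcription factor genes, 15 of 19 measured members lay above the floor, and Fosl1, Fosl2, Myc and Maff did not. Their median difference was 0.29, against -0.02 over all 5304 genes. None passed the adjusted test. The 5 with an unadjusted p under 0.05 were Egr2, Klf4, Atf3, Fos and Fosb, all higher (0.66% of all genes above the floor were), and 11 of 15 differences were positive, against 45.3% of all genes. Egr2, a zinc finger factor of the EGR family, ran from 8.19 to 9.33 on the saline arrays with a median of 9.07, and from 9.43 to 9.98 after methamphetamine with a median of 9.69. The groups did not overlap. The difference was 0.81 (SE 0.169, adjusted p = 0.25, limma), with 0.87 in replicates 1 to 3 and 0.75 in replicates 4 to 6. Klf4, a Krüppel-like factor, ran from 3.35 to 5.19 (median 4.81) after saline and from 5.36 to 5.96 (median 5.52) after methamphetamine, without overlap. Its difference was 1.00 (SE 0.227, adjusted p = 0.479), and without the arrays that stood apart it was 0.69. Saline replicate 3 was again the lowest array for Egr2 and Klf4.

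Atf3, a stress-induced factor of the CREB family, ran from 3.85 to 4.66 after saline (median 4.45) and from 4.67 to 5.96 after methamphetamine (median 5.42). The groups touched without overlapping, and the difference was 1.04 (SE 0.256, adjusted p = 0.904). A second probe set of Atf3 above the floor read 3.25 in both groups, a difference of 0.001, so the probe sets of this gene disagree. Fos, the founding member of the AP-1 family, ran from 7.53 to 9.82 after saline (median 9.12) and from 9.64 to 10.1 after methamphetamine (median 10.03). Saline replicate 2 lay above the lowest methamphetamine array, so the groups overlapped. The Fos difference was 0.93 (SE 0.249, adjusted p = 1). Without the arrays that stood apart it was 0.77 with a smaller SE of 0.133 (adjusted p = 0.0637). Fosb, its paralog, ran from 9.37 to 11.93 after saline (median 11.6) and from 11.73 to 12.96 after methamphetamine (median 12.8), with overlap. The difference was 1.25 (SE 0.503). This value leaned on saline replicate 3, the lowest array, and was 0.75 (SE 0.526) without the arrays that stood apart. It was 1.95 in replicates 1 to 3 and 0.54 in replicates 4 to 6.

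Other members of these families had smaller differences. Egr1, a widely used marker of neuronal activity, ran from 9.82 to 10.6 after saline and from 9.46 to 10.3 after methamphetamine, with a difference of -0.19 (SE 0.201). Junb, a partner of Fos, had a difference of 0.29 (SE 0.201) and ran from 5.32 to 6.25 and from 5.32 to 6.42. The groups overlapped for both genes and neither passed, which does not show that their levels were equal.

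The promoter of Egr2 is printed because it holds a CArG box, the element bound by serum response factor. RefSeq lists 5 starts; the third, chr10:67537619-67537918 on the plus strand of GRCm38.p6, has the box 72 bases before the start, in capitals.

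Egr2: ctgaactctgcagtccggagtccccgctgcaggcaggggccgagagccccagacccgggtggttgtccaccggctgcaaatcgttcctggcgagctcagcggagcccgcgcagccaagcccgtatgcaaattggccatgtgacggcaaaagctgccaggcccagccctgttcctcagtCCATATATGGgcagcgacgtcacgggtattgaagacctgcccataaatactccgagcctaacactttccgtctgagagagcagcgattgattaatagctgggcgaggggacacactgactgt

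A CArG box was found in 1.63% of the 32851 promoters. None was found in the 300-base windows of Btg2, Klf4, Atf3 or Fos, and this says only that these letters are not in those windows.

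Immediate early genes that encode other proteins had 22 of 27 measured members above the floor, with a median difference of 0.16 and 17 of 22 positive, against 45.3% of all genes. With an unadjusted p under 0.05 were 4 members, Btg2, Sgk1, Dusp1 and Gem, all higher (0.66% of all genes above the floor were), and only Btg2 passed the adjusted test. Sgk1, a serum and glucocorticoid regulated kinase, ran from 9.01 to 9.71 (median 9.38) after saline and from 9.60 to 10.3 (median 9.78) after methamphetamine. The groups overlapped by 1 saline array, replicate 2, and the difference was 0.46 (SE 0.147). Dusp1, the phosphatase that switches off MAP kinases, ran from 8.11 to 9.68 (median 8.71) and from 9.20 to 10.2 (median 9.26), with overlap and a difference of 0.62 (SE 0.286). Gem, a small GTPase that limits calcium channels, was read near the floor on all but 2 arrays. It lay between 2.31 and 2.53 on all 6 saline arrays and on 4 methamphetamine arrays, and at 3.61 and 4.19 on methamphetamine replicates 5 and 6. Its difference of 0.51 (SE 0.245) therefore came from a pair of arrays.

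**Figure D2:**
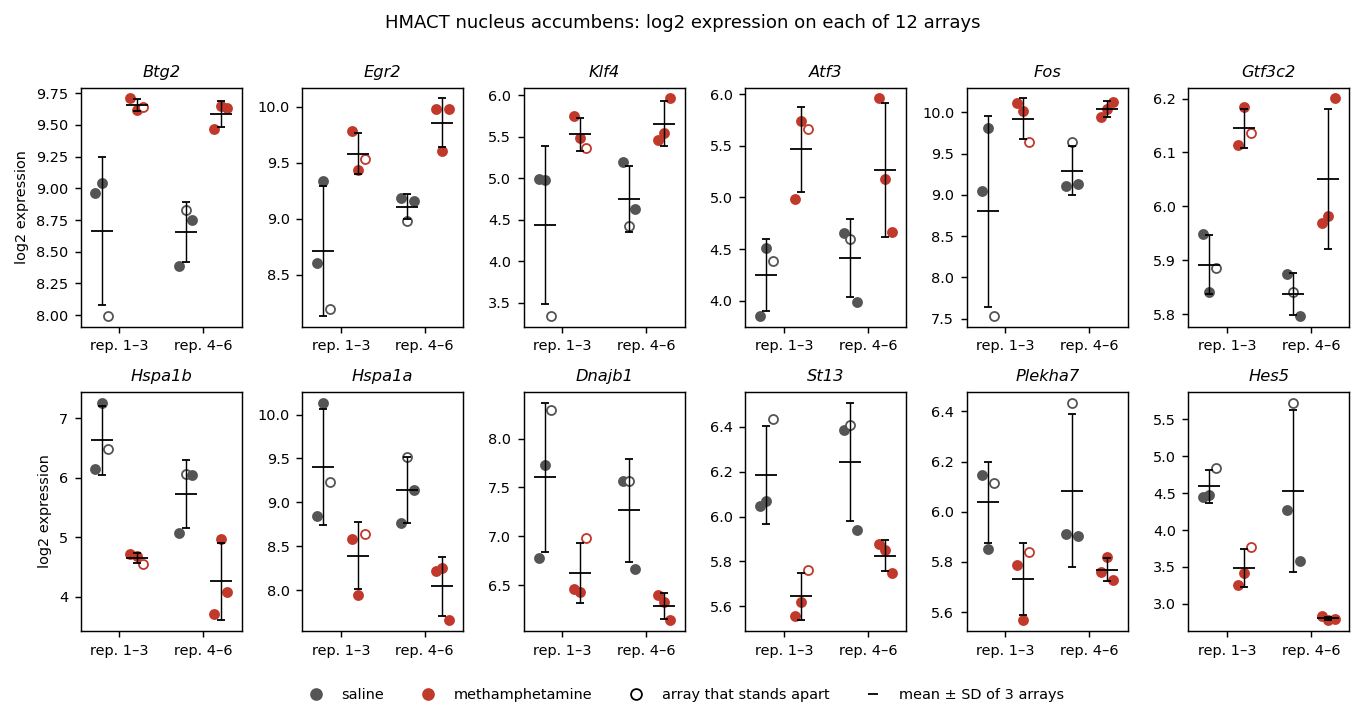
Log2 values of 12 genes on each of the 12 HMACT arrays, split into replicates 1 to 3 and 4 to 6, with saline in grey, methamphetamine in red, open symbols for arrays that stand apart and bars for the mean ± SD of 3 arrays. In the panels of Btg2, Egr2, Klf4, Atf3 and Gtf3c2 every red point lies above every grey point, and in those of Hspa1b, Hspa1a, St13 and Plekha7 every red point lies below, while Fos, Dnajb1 and Hes5 each overlap.

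The remaining genes of the 12 smallest p-values on the higher side were not immediate early transcription factors. Gtf3c2, a subunit of the RNA polymerase III factor TFIIIC, did not overlap between groups but differed little: it ran from 5.80 to 5.95 after saline and from 5.97 to 6.20 after methamphetamine. Its difference of 0.23 (SE 0.078) is 1.18-fold. Zfp36l2, a protein that binds AU-rich elements and destabilises messenger RNA, had a difference of 0.73 (SE 0.210), which was 1.12 in replicates 1 to 3 and 0.34 in replicates 4 to 6. It was 0.42 (SE 0.165) without the arrays that stood apart, saline replicate 3 being the lowest. Sat1, the rate-limiting enzyme of polyamine breakdown, had a difference of 0.34 (SE 0.111), and Usp3, a deubiquitinase, 0.57 (SE 0.198). The other probe sets of Usp3 gave 0.04 and 0.03. Alg3 had 0.36 (SE 0.140), which was 0.23 without saline replicate 3, and its other probe set gave 0.02. Alg3 and Wdhd1 (0.13, SE 0.051) read one recurring value within 0.002 on 4 and 5 of the 12 arrays. Such recurrence was common: 1225 of the 5304 genes (23.1%) shared 1 value on 4 or more arrays, with a median shared value of 2.87. Its cause was not tested.

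Among the gene lists, that of heat shock chaperones had the most members lower with an unadjusted p under 0.05. The lists were chosen with earlier results of these data known, and gene families outside them were not compared. The heat shock list had 28 of 32 measured members above the floor. The median difference was -0.08, 11 were positive and 17 negative, and the 5 with an unadjusted p under 0.05 were all lower (Hspa1b, Hspa1a, Dnajb1, St13 and Tcp1), against 1.32% of all genes above the floor. None passed the adjusted test. Hspa1b, an inducible HSP70 chaperone, ran from 5.07 to 7.27 after saline (median 6.10) and from 3.71 to 4.97 after methamphetamine (median 4.62). The groups did not overlap. The difference was -1.73 (SE 0.358, adjusted p = 0.25), a 3.31-fold lower level, with -1.98 in replicates 1 to 3 and -1.48 in replicates 4 to 6. Hspa1a, the adjacent near-identical gene, ran from 8.77 to 10.1 after saline (median 9.19) and from 7.66 to 8.64 after methamphetamine (median 8.24). Its difference was -1.05 (SE 0.282, adjusted p = 1), with -1.01 and -1.10 in the replicate sets. Saline replicate 2 was the highest array for both genes. The copies are so alike that a probe set named for one may read both, so they are not independent measurements.

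The promoters of both HSP70 genes are printed to show how alike the copies are and where the heat shock element lies. They are chr17:34972107-34972406 for Hspa1a and chr17:34959189-34959488 for Hspa1b, both on the minus strand of GRCm38.p6, and 296 of 300 positions are identical (98.7%). The capitals mark the core GAANNTTC of the heat shock element, which begins 104 bases before the start.

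Hspa1a: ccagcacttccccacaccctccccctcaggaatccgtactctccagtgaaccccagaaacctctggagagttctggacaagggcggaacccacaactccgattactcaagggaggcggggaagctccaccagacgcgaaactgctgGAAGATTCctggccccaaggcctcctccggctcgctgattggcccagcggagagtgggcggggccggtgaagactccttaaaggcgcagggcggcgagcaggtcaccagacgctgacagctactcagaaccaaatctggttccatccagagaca

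Hspa1b: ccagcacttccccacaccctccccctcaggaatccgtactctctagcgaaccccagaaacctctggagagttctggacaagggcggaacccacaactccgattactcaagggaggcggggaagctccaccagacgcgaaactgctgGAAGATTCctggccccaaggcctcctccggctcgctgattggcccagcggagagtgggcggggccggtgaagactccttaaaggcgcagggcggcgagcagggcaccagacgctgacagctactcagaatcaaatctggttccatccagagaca

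This core was found in 7.86% of all promoters of this length. It was not found in the promoters of Dnajb1, which says nothing of the factor that binds it.

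Dnajb1, the HSP40 partner that hands clients to HSP70, ran from 6.66 to 8.29 after saline (median 7.57) and from 6.14 to 6.98 after methamphetamine (median 6.41). The groups overlapped through methamphetamine replicate 3, and the difference was -0.98 (SE 0.246, adjusted p = 0.917), the same in both replicate sets at -0.98. St13, the HSP70-interacting cochaperone Hip, ran from 5.94 to 6.43 and from 5.56 to 5.88, without overlap, with a difference of -0.48 (SE 0.135). Its other probe set gave -0.16 (unadjusted p = 0.262). Tcp1, a subunit of the cytosolic chaperonin, had a difference of -0.16 (SE 0.050) and one recurring value on 4 arrays. Other chaperones had differences of mixed sign. Hspa8, the constitutive HSP70, had a difference of -0.10 and Hspd1, the mitochondrial chaperonin, -0.30, and both turned positive with array weights. Hsp90aa1, the inducible HSP90, had -1.33 in replicates 1 to 3 and 1.51 in replicates 4 to 6 (SE 0.943 each). The list of endoplasmic reticulum stress genes, which holds chaperones and transcription factors such as Atf4 and Xbp1, had 15 of 18 members above the floor, with 12 negative and a median of -0.15. Of these, 2 were lower with an unadjusted p under 0.05, against 1.32% of all genes above the floor: Manf (-0.39, SE 0.173) and Hspa5, the chaperone BiP (-0.41, SE 0.192). Pdia3, a disulfide isomerase, had -0.34 (SE 0.166). Without methamphetamine replicate 3, an array that stood apart, Hspa5 had -0.25 and Pdia3 -0.17.

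Hes5, a repressor of the basic helix-loop-helix family and the usual readout of Notch signalling, had the second smallest p. It ran from 3.58 to 5.73 after saline (median 4.46) and from 2.78 to 3.76 after methamphetamine (median 3.04). Only saline replicate 6, at 3.58, lay below the highest methamphetamine array, replicate 3. Means were 4.56 ± 0.71 and 3.14 ± 0.41 (SD, n = 6 each), and the difference was -1.42 (SE 0.263, adjusted p = 0.13). It was -1.11 (SE 0.357) in replicates 1 to 3 and -1.73 (SE 0.357) in replicates 4 to 6, and within each replicate set the groups did not overlap. Without the arrays that stood apart the difference was -1.18 (SE 0.169, adjusted p = 0.0107), and without saline replicate 6 it was -1.61 (adjusted p = 0.00973). The adjusted p was 1 in the fit of the 12 HMACT arrays. Hes5 is also a gene of astrocytes and neural progenitors. The astrocyte markers had 11 of 12 measured members above the floor, and their mean log2 level ran from 8.61 to 9.16 after saline and from 8.65 to 8.82 after methamphetamine. Their part in the Hes5 value was not tested.

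The promoter of Hes5 is shown because it holds the RBPJ element GTGGGAA, through which Notch acts, at 226 and 83 bases before the start, on opposite strands. It lies at chr4:154960673-154960972 on the plus strand of GRCm38.p6. The capitals mark both elements and, nearest the start, letters that match the CArG box pattern. Only letters were matched, and whether serum response factor binds there was not tested.

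Hes5: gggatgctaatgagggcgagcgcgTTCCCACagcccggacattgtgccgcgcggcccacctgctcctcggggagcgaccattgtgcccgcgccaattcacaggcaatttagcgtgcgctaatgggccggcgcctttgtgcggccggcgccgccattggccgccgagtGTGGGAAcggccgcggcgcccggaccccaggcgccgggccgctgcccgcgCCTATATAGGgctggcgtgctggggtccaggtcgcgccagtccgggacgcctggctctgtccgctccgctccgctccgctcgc

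GTGGGAA was found in 6.38% of the 32851 promoters.

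Psmd5, a chaperone of proteasome assembly, had a difference of -0.42 (SE 0.128), and its arrays ran from 6.12 to 6.87 after saline and from 5.87 to 6.29 after methamphetamine. Plekha7, a protein of adherens junctions, ran from 5.85 to 6.44 and from 5.57 to 5.84, which put all 6 methamphetamine arrays below all saline arrays, with a difference of -0.31 (SE 0.096). Cwc15, a splicing factor, had -0.29 (SE 0.098). Lyst (-0.04, SE 0.014), F8a (-0.25, SE 0.087) and Zcchc3 (-0.25, SE 0.087) completed the 12 smallest p-values on this side; their means were under 3.6 and each read 1 recurring value on 5 to 8 arrays.

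Glucocorticoid responsive genes were described because stimulants raise stress hormones. The list had 21 of 28 measured members above the floor, a median of 0.10 and 16 of 21 positive, against 45.3% of all genes. With an unadjusted p under 0.05 were 3 members, all higher (Sgk1, Txnip and Dusp1), against 0.66% of all genes, and 0 passed the adjusted test. In replicates 1 to 3 the median was 0.33 with 17 of 21 positive, against 0.003 and 51.1% over all genes, and 6 members were higher with an unadjusted p under 0.05, against 4.22%. In replicates 4 to 6 it was -0.05 with 10 of 21 positive, against -0.06 and 36.7% over all genes, and 0 members were higher with such a p, against 0.528%. Txnip, an inhibitor of thioredoxin, read 5.51, 5.47 and 6.12 after saline in replicates 1 to 3 and 6.76, 6.78 and 7.71 after methamphetamine, without overlap. In replicates 4 to 6 it read 6.12, 5.76 and 5.91 against 5.97, 5.74 and 6.52. The differences were 1.38 (SE 0.431) and 0.14 (SE 0.431), and the difference between them was -1.24 (SE 0.610, unadjusted p = 0.0577, adjusted p = 0.795).

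Cebpd, a C/EBP transcription factor, had 1.95 (SE 0.744) in replicates 1 to 3 and 0.34 (SE 0.744) in replicates 4 to 6. Cdkn1a, the cell cycle inhibitor p21, had 1.48 (SE 0.560) in replicates 1 to 3, which came from 2 arrays: methamphetamine replicates 2 and 3 read 7.75 and 6.29, replicate 1 read 4.92, and the 3 saline arrays read 4.83 to 4.84. Ddit4, an inhibitor of mTOR signalling, had 1.18 (SE 0.458) in replicates 1 to 3, with saline between 7.26 and 8.30 and methamphetamine between 8.37 and 9.52. In replicates 4 to 6 these genes averaged 4.69 and 4.71 (Cdkn1a) and 8.23 and 8.14 (Ddit4) after saline and methamphetamine. None of the 4 differences between the replicate sets passed, with unadjusted p-values of 0.0577 to 0.144.

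**Figure D3:**
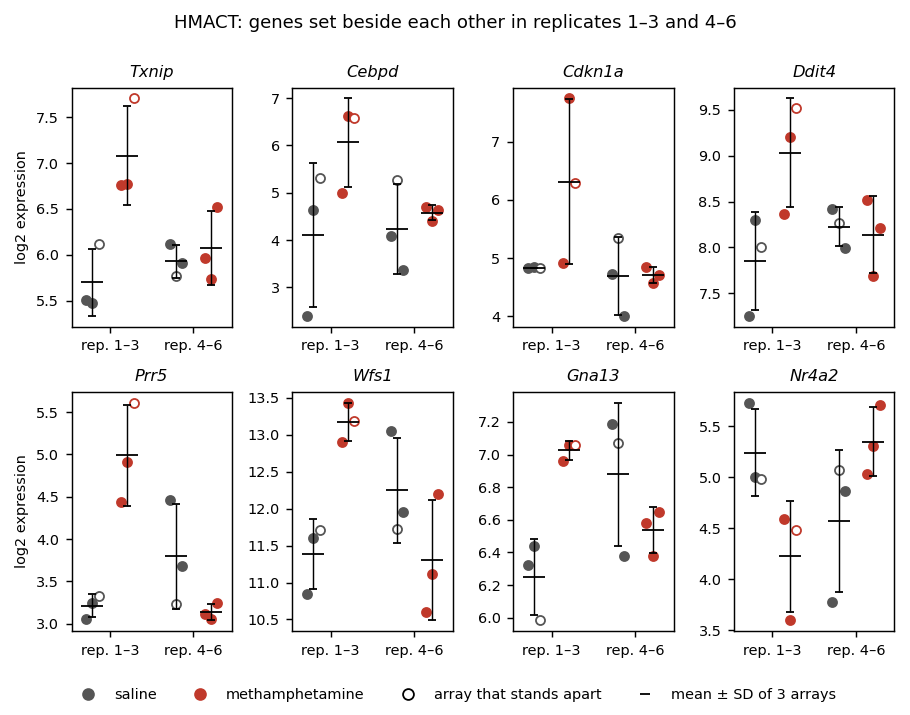
Log2 values of Txnip, Cebpd, Cdkn1a, Ddit4, Prr5, Wfs1, Gna13 and Nr4a2 on each array, split into replicates 1 to 3 and 4 to 6, with saline in grey, methamphetamine in red, open symbols for arrays that stand apart and bars for the mean ± SD of 3 arrays. Red lies above grey in replicates 1 to 3 for Txnip, Cdkn1a, Ddit4, Prr5, Wfs1 and Gna13 and overlaps it for Cebpd, whereas in Nr4a2 red lies below grey there; in replicates 4 to 6 no panel has all red points above all grey points.

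Genes of the neurotransmitter systems that methamphetamine acts on had differences near those of all genes. Medium spiny neuron genes had 16 of 21 measured members above the floor, 8 positive and 8 negative, with a median of -0.01. An unadjusted p under 0.05 was found for 0 of them, against 0.66% higher and 1.32% lower among all genes above the floor. Tac1, which encodes substance P, ran from 9.28 to 10.3 and from 9.47 to 10.3, with a difference of 0.21 (SE 0.152). Cyclic AMP and G protein genes (25 of 30 above the floor) had a median of -0.01, 12 positive and 13 negative, and MAP kinase cascade genes (18 of 24) had a median of -0.01, 7 positive and 11 negative. Of the monoamine genes only 7 of 16 lay above the floor, and the dopamine transporter Slc6a3 was not among them. Their median was -0.03. Slc6a4, the serotonin transporter, had 0.16 (SE 0.072) with one recurring value on 8 arrays, and Maoa, which degrades monoamines, -0.12 (SE 0.086).

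Glutamate receptor and synapse genes (12 of 18 above the floor) had 11 of 12 negative differences, a median of -0.07 and 0 with an unadjusted p under 0.05. Over all genes above the floor 45.3% of differences were positive, and such a p was found for 0.66% higher and 1.32% lower. GABA receptor and synapse genes (8 of 13) had a median of 0.13, and synaptic vesicle genes (22 of 24) of -0.02. Of the channel genes (16 of 26), 12 were negative. Among them only Scn8a, the sodium channel Nav1.6, had an unadjusted p under 0.05, against 1.32% lower among all genes above the floor. It ran from 5.68 to 6.50 after saline and from 5.06 to 5.83 after methamphetamine, with a difference of -0.46 (SE 0.164, adjusted p = 1). Neuropeptide genes (14 of 21) had a median of -0.11 and clock genes (14 of 17) of -0.03. Among the clock genes was Csnk1e, which encodes casein kinase 1 epsilon and is a candidate gene for stimulant response in these lines. It ran from 7.89 to 9.37 after saline and from 8.08 to 8.53 after methamphetamine, with a difference of -0.26 (SE 0.259). It was -0.12 without saline replicate 3 and -0.41 without saline replicate 4.

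Housekeeping lists were mostly negative by small amounts. Respiratory chain genes had 33 of 38 members above the floor, 27 negative, and a median of -0.08. Proteasome genes (30 of 34) had 20 negative and a median of -0.09, ribosomal protein genes (18 of 21) 14 negative and -0.12, and antioxidant genes (26 of 29) 16 negative and -0.10. Chromatin and RNA genes (22 of 23) had 15 positive and a median of 0.05. In these 5 lists, 0 members had an unadjusted p under 0.05, against 0.66% higher and 1.32% lower among all genes above the floor. Over all genes 45.3% were positive and the median was -0.02.

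**Figure D4:**
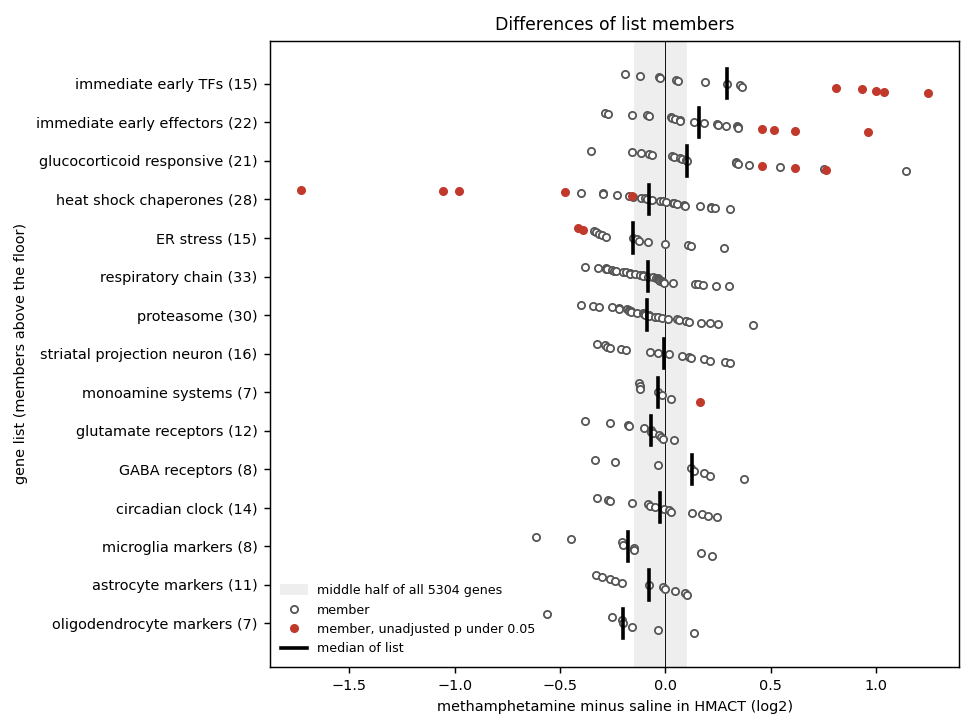
Each point is 1 gene above the floor of the list named on the y axis, placed by its log2 difference methamphetamine minus saline on the x axis, red where the unadjusted p is under 0.05 and white otherwise, black bars are list medians, and the grey band spans the interquartile range of all 5304 genes, from -0.14 to 0.10. The immediate early lists extend to the right, with a median of 0.29 for the transcription factors, and the heat shock list has a few members far to the left. The marker lists lie mostly left of 0, with medians of -0.18 (microglia), -0.08 (astrocyte) and -0.20 (oligodendrocyte).

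Markers of the cell types that the tissue could hold had 0 members with an unadjusted p under 0.05 in any list. Over all genes above the floor the shares were 0.66% higher and 1.32% lower, so 0 in lists this short says little. Neuron markers (11 of 11 above the floor) had a median difference of -0.14, astrocyte markers -0.08, microglia markers (8 of 14) -0.18 and oligodendrocyte markers (7 of 9) -0.20. Endothelial markers had 0 and mural markers -0.08. The choroid plexus marker Ttr and the microglia marker Aif1 were at the floor on all arrays, and Cx3cr1 was not above it. The mean level of the microglia markers was highest on the arrays that stood apart, at 8.62 on saline replicate 3, 8.05 on methamphetamine replicate 3 and 7.67 on saline replicate 5. The score had been oriented to rise with the microglia gene C1qa, and only high scores could stand apart. This pattern is therefore not independent of how the arrays were picked. In bulk tissue, fewer cells of a type and less RNA per cell cannot be told apart. Oligodendrocyte markers had a median of 0.14 in replicates 1 to 3 and of -0.48 in replicates 4 to 6, where 0 of 7 were positive, against 36.7% of all genes. Mag, a myelin protein, had -1.29 in replicates 4 to 6. The part of any marker list in the gene values above was not tested.

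The replicate sets were then compared directly. Within replicates 1 to 3, 1 gene passed the adjusted test, Crb3, at the floor on 9 arrays and so not above it (difference -0.02). This is 0.0121% of the 8251 genes, with 0 higher genes (0%). With an unadjusted p under 0.05 were 224 higher (4.22%) and 141 lower (2.66%) genes of the 5304. Within replicates 4 to 6, 0 genes passed (0%), with 126 of all genes at an unadjusted p under 0.05, and 28 higher (0.528%) and 72 lower (1.36%) above the floor. The counts turn on single arrays: leaving out saline replicate 2 gave 202 genes past the adjusted threshold in replicates 1 to 3, and leaving out saline replicate 6 gave 10 in replicates 4 to 6.

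Btg2 had the smallest p on the higher side of both replicate sets. In replicates 1 to 3 the next were Exosc8 (0.41), Prr5 (1.78) and Elac2 (1.65), and on the lower side Tulp1 (-0.10), Frzb (-0.27), Hspa1b (-1.98) and Ube2s (-0.51). Of these, Exosc8, Elac2, Tulp1, Frzb and Ube2s read 1 recurring value on 5 to 7 arrays. In Elac2 that value, 7.31, stood on 7 arrays of both groups, while saline replicates 1 and 3 read 5.38 and 4.48. In replicates 4 to 6 the smallest p-values after Btg2 were those of Egr2 (0.75), Gem (0.99) and Lrrc23 (0.22), and on the lower side Hes5 (-1.73), Tcp1 (-0.20), Xirp1 (-0.14) and Ttc27 (-0.14). Lrrc23 and Xirp1 read their recurring value on 9 and 8 arrays.

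Groups of 3 against 3 did not overlap within replicates 1 to 3 for 113 higher (2.13%) and 86 lower (1.62%) genes, and within replicates 4 to 6 for 133 higher (2.51%) and 294 lower (5.54%). Separated upward in both replicate sets were 7 genes (0.132%): Atf3, Btg2, Egr2, Gtf3c2, Klf4, Sgk1 and Wdhd1. Separated downward in both were 5 genes (0.0943%): Hes5, Hspa1a, Hspa1b, Plekha7 and St13. Separated upward in replicates 1 to 3 and downward in replicates 4 to 6 were 14 genes (0.264%), among them Plk2, Gab1 and Qdpr, which were named after their values were seen, and 2 genes (0.0377%), 2610301B20Rik and Rsrp1, the other way. With 3 arrays a group, genes also separate in both replicate sets by chance. These counts were not compared with the numbers so expected and do not show that an effect recurred. Across the 5304 genes the differences in the replicate sets correlated with r of -0.306 (Pearson) and rho of -0.225 (Spearman), with 41.7% of the same sign; genes are not independent replicates, and within each replicate set the points share arrays. Without the arrays that stood apart r was -0.389.

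**Figure D5:**
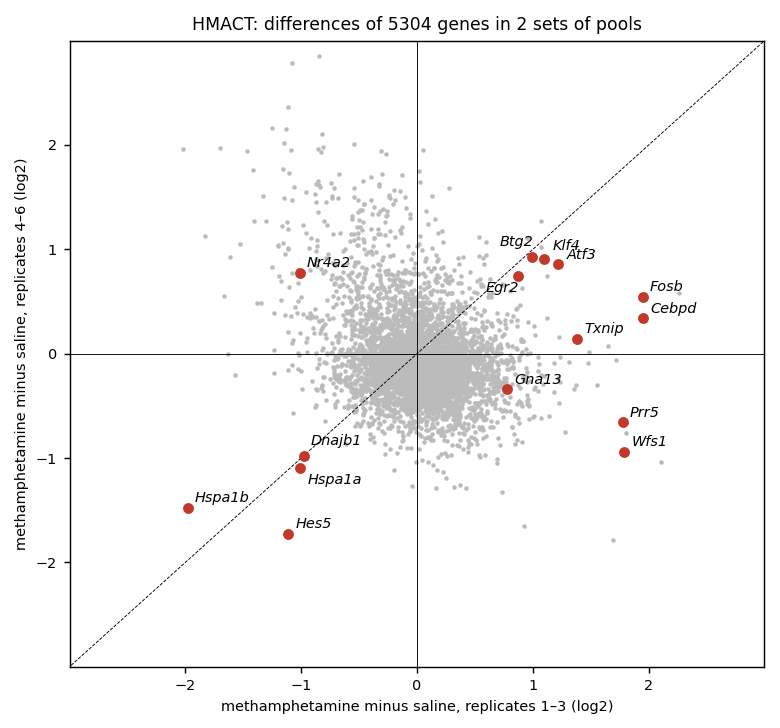
Each point is 1 of the 5304 genes, with its log2 difference methamphetamine minus saline in replicates 1 to 3 on the x axis and in replicates 4 to 6 on the y axis; the dashed line marks equal differences. Btg2, Egr2, Klf4, Atf3 and Fosb lie in the upper right, whereas the immediate early gene Nr4a2 lies in the upper left. Hspa1b, Hspa1a, Dnajb1 and Hes5 lie in the lower left, while the bulk of the cloud slopes downward with r of -0.306.

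The difference between the replicate sets itself passed for 0 genes (0%), with 387 of all genes at an unadjusted p under 0.05 (limma), and 348 above the floor (6.56%). The smallest p-values belonged to Prr5, Rpa3, Nr4a2, Wfs1 and Gna13, with an adjusted p of 0.795. Prr5, a component of mTOR complex 2, read 3.06, 3.25 and 3.33 after saline and 4.44, 4.92 and 5.61 after methamphetamine in replicates 1 to 3. In replicates 4 to 6 it read 4.47, 3.23 and 3.69 and then 3.11, 3.06 and 3.24. The difference went from 1.78 to -0.66, a change of -2.43 (SE 0.561, unadjusted p = 4.3e-04). Wfs1, an endoplasmic reticulum protein abundant in striatal neurons, had 1.79 (SE 0.504) and -0.94 (SE 0.504), a change of -2.73 (SE 0.712). Gna13, a G protein subunit, changed by -1.12 (SE 0.295), and its other probe set gave an overall difference of 0.17.

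Nr4a2, the orphan receptor Nurr1 and an immediate early gene, ran the other way. It read 5.73, 5.01 and 4.98 after saline and 4.60, 3.60 and 4.48 after methamphetamine in replicates 1 to 3, and 3.78, 5.08 and 4.86 against 5.03, 5.31 and 5.71 in replicates 4 to 6. The groups did not overlap in replicates 1 to 3 and did in replicates 4 to 6, and the differences were -1.01 (SE 0.318) and 0.78 (SE 0.318), a difference between the sets of 1.79 (SE 0.450). Over all 12 arrays Nr4a2 had -0.12 (SE 0.299). A second Nr4a2 probe set, with low means of 2.86 after saline and 2.98 after methamphetamine, gave 0.12 (SE 0.059), the opposite sign. Rpa3, a subunit of the single-strand DNA binding complex, differed between the sets by 0.84 (SE 0.210) and read one recurring value on 6 arrays.

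Set against LMACT, whose saline and methamphetamine groups held 11 arrays, no HMACT difference was shown to be particular to the line: the interaction passed for 0 genes (0%), with 216 of all genes at an unadjusted p under 0.05 (limma), and 210 above the floor (3.96%). In LMACT, Btg2 had 0.80 (SE 0.134), Hspa1b -1.69 (SE 0.375), Hspa1a -0.97 (SE 0.296) and Atf3 0.86 (SE 0.268). Zfp36l2 had 0.94 (SE 0.221), Dusp1 0.98 (SE 0.300) and Txnip 1.09 (SE 0.349). Hes5 had -0.30 (SE 0.276) in LMACT, and the HMACT minus LMACT difference was -1.12 (SE 0.381, unadjusted p = 0.0085). Dnajb1 had -0.21 (SE 0.258) in LMACT and St13 -0.04 (SE 0.142), with interactions of -0.77 (SE 0.356) and -0.44 (SE 0.196). Plekha7 had 0.05 (SE 0.101) in LMACT and an interaction of -0.36 (SE 0.139). The adjusted p of these last 4 interactions was 0.86.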

How the data were processed

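Each of 23 pools of nucleus accumbens tissue was measured on 1 Affymetrix array. The log2 values are those the authors deposited, 1 per probe set; that they are on a log2 scale was inferred. How they were normalized and summarised is not stated in the sources used here, and the submitters' processing notes give R 2.7.1 without a role. Of 12488 probe sets, 66 were controls, 10833 had 1 gene, 396 several and 1193 were not listed. Of the 10833, 10817 matched RefSeq by gene identifier. Where a gene had more than 1 probe set (2073 genes), that of the highest mean stood for it, leaving 8251 genes.

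Differences came from limma 3.58.1 in R 4.3.3 (lmFit, contrasts.fit, eBayes) with 4 group means over 23 arrays, or 6 where HMACT was split into replicates 1 to 3 and 4 to 6. Tests were two-sided with Benjamini-Hochberg adjustment over 8251 genes. The fits were also run on simulated data with noise drawn independently for each gene and array. Such data lack the shared axis of the arrays and the recurring values, so this run does not check the tests under those conditions. No 2 of the 12 arrays were copies: the smallest mean absolute difference over 66 pairs was 0.0736. The number of arrays limits the precision. The members and lists were chosen with earlier results of these data known. Named were, among genes above the floor, those past the threshold, the 12 smallest p-values per direction, genes whose arrays did not overlap, the 4 smallest p-values per direction in each replicate set, the 5 smallest of the difference between these sets, the 3 list members with the smallest p-values, the 2 highest markers per list and Csnk1e. Not all are printed, and other list members are named as examples after their values were seen. Alternatives were other normalization, probe set use, eBayes settings, array weights, covariates, blocks and leaving out arrays. An array stood apart where its score exceeded the median by 3.5 median absolute deviations, a limit set after the scores were seen. The sign of the score was set so that it rose with C1qa, a microglia gene. Promoter windows are RefSeq's, searched on both strands.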

Additional observations from a re-analysis of the deposited data

Results flagged for a closer look

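In 116 groups of 6 arrays, for the genes named, 20 had 1 array whose gap to the nearest of the others was a large enough share of the group's range for Dixon's test at its 95% critical value; chance gives about 1 in 20 groups. The cause of these values was not tested. Saline replicate 3 also had the lowest 3' minus 5' control signal of the HMACT arrays, at 1.07. Saline replicate 3 was lowest for Fos (7.535, others 9.052 to 9.816) and for Fosb (9.369, others 11.39 to 11.93) and highest for Mag (8.183, others 5.701 to 6.377), and methamphetamine replicate 3 was lowest for Fos (9.641, others 9.949 to 10.13). Methamphetamine replicate 3 also read 10.2 for Dusp1 (others 9.198 to 9.376), 3.547 for Pdia3 (others 4.309 to 4.634), 2.812 for Exosc8 and 3.14 for Tulp1. Methamphetamine replicate 2 read 6.082 for Alg3, 2.741 for Lyst, 2.627 for F8a and 2.858 for Frzb. Methamphetamine replicate 6 read 2.912 for Wdhd1 and 3.023 for Zcchc3, and methamphetamine replicate 1 read 4.285 for Tcp1. Among saline arrays, replicate 4 read 9.232 for Hspa5 (others 8.411 to 8.58), and replicate 1 read 3.433 for Slc6a4 and 7.256 for Ddit4 (others 7.995 to 8.421). Replicate 6 read 2.543 for Lrrc23 and replicate 5 read 3.106 for Rpa3. In Lyst, Tulp1, Frzb and Lrrc23 the other 5 arrays of the group shared 1 value within 0.002.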

How the results depend on the processing

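Counts are genes past an adjusted p of 0.05 (limma). The estimation of array weights stopped before its tolerance in at least 1 fit. For methamphetamine minus saline, 1 gene in the report, array weights gave 2 (Btg2 and Hes5), leaving out the arrays that stood apart 3 (Btg2, Hes5 and Grid1) and a covariate for the array axis 6. The fit of only the 12 HMACT arrays, and on them a block on replicate set, chip lot, mean age or a random replicate block, gave 0, with 47, 53, 51, 64 and 87 genes at an unadjusted p under 0.05. The largest chip lot, chosen after seeing the data, gave 0 (179 unadjusted). A replicate block gave 0 (149 unadjusted). Same-numbered pools shared the chip lot in all 6 pairs and the mean age in 3, though no label ties a replicate number to a batch. Deviations correlated over 0.1 in 5 of 6 pairs and with -0.617 in the other, and 4 of 12 arrays correlated best with their own number. A pairing was assumed only if every pair passed 0.1, so the block is an alternative. Leaving out each array gave 1 to 2.

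In replicates 1 to 3, 1 gene in the report, median centring, genes above the floor only and the 12 arrays alone gave 0 (383, 342 and 213 unadjusted), array weights 62, leaving out the arrays that stood apart 13 and the axis 24; leaving out each array gave 1 to 202. In replicates 4 to 6, 0 in the report, array weights gave 467, leaving out the arrays that stood apart 5, and each array 0 to 10. For the difference between the replicate sets, 0 in the report, quantile normalization, each probe set and trend with robust gave 1 each, weights 26, leaving out the arrays that stood apart 5, and each array 0 to 85, the highest without saline replicate 2. The interaction gave 322 with the axis and 0 without any 1 array. The 9 genes without overlap became 6 with quantile normalization, 7 with median centring, 8 with the mean of all probe sets, 17 without the arrays that stood apart and 9 to 14 without each array. Of 97 gene differences, 93 kept their direction in every one of the 28 settings that could give them. Hspa8 turned to 0.033 with array weights and 0.049 without the arrays that stood apart, and Hspd1 to 0.10 with array weights. Txnip in replicates 4 to 6 turned to -0.11 with array weights and ran from -0.077 to 0.31 when each array was left out, turning without methamphetamine replicate 6. Cebpd there ran from -0.096 to 0.85, turning without saline replicate 6; the cause was not tested. List medians moved by more than the spread between saline arrays in 5 values and by less in 807. Leaving out 1 array moved 11 of 41 single-gene differences over all 12 pools by over 1.5 times, 11 of 22 within replicates 1 to 3 and 12 of 20 within replicates 4 to 6.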
